A study of Mus musculus with 9 samples.

Results

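A set of 10 genes that mark the resident macrophages of the liver or encode complement C1q were followed through 9 mouse liver RNA sequencing libraries. The 10 members were Clec4f, Vsig4, Timd4, Cd5l, Marco, Adgre1, C1qa, C1qb, C1qc and Csf1r, out of 32285 genes in the table, and they were taken by symbol. All 10 had a mean of at least 10 normalized counts over the 9 libraries and so were among the 12100 genes tested. The libraries came from whole livers of mice that were 4 weeks old and male when treatment began. The study's design text names them as Tet-OFF mice, a line that the methods describe with a PB CAG-CreERT2 allele, a Rosa26 LSL-tTA allele and a Rosa26 tetO-Venus-ires-mCherry allele, but the labels give no genotype per library. Mice of all 3 groups received tamoxifen, which lets Cre remove the stop cassette before tTA in cells throughout the body. The Control group (n = 3) received no further drug. The Dox group (n = 3) drank doxycycline hyclate and the Tc group (n = 3) drank tetracycline hydrochloride, each at 2 mg/mL in water with sucrose for 7 days. In Tet-OFF mice both drugs also switch off the tTA-driven transgene, which stays on without them, so an effect of the drug and an effect of the silenced transgene cannot be told apart.

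Kupffer cells are macrophages that sit inside the liver sinusoids, where they take up particles, bacteria, old red cells and dying cells from the blood. They depend on signalling through the receptor Csf1r, and they are identified by surface proteins such as Clec4f, a lectin found on mouse Kupffer cells, and Timd4, a receptor for phosphatidylserine on dying cells. They are also a main source of C1q, the recognition part of the first complement component, which is built from the A, B and C chains encoded by C1qa, C1qb and C1qc.

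The 3 C1q genes lie side by side on the minus strand of chromosome 4, within 18675 bases that hold no other annotated gene, in the order C1qb, C1qc, C1qa (chr4:136880129-136898803, GRCm38). The other members lie apart from each other. Clec4f is on chromosome 6 (chr6:83644542-83656187), Vsig4 on the X chromosome (chrX:96247203-96293438), Timd4 on chromosome 11 (chr11:46810800-46844332) and Cd5l on chromosome 3 (chr3:87357881-87371073). Marco is on chromosome 1 (chr1:120474538-120505024) and Adgre1 on chromosome 17 (chr17:57358691-57483527).

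Promoter sequences in RefSeq (GRCm38) were matched for 7 of the 10 members, all except Adgre1, C1qa and Csf1r. Since PU.1, an ETS factor, is a general regulator of macrophage genes, the 250 bases before each start were searched on both strands for its core letters GAGGAA. Of the 7 members, 5 held GAGGAA, against 23.3% of all 32851 windows of that length. The related ETS letters GGAAGT were in 5 of the 7 and in 19.7% of all windows, and the MAF-type letters TGCTGA were in 4 of the 7 and in 16.1% of all windows. These were 3 of 9 motifs searched. AGGAAGT, which holds GGAAGT, was in 2 of the 7 (7.7% of all windows), and AGAGGAAGT (0.8%), TTGCGCAA (0.2%), TGACCTTTG (0.4%), TGAGTCA (4.5%) and CAGCTG (13%) were in 0 of the 7. The stretches around the GAGGAA match nearest to the start are shown for the 5 members that hold it, since these members share the letters and their values are set side by side below. They are read along the gene's own strand, 5′ to 3′, capitals mark GAGGAA or its reverse complement TTCCTC, and no stretch overlaps an annotated exon.
C1qb (chr4:136886201-136886270, minus strand): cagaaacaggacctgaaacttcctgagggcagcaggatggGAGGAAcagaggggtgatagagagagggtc
C1qc (chr4:136893068-136893147, minus strand): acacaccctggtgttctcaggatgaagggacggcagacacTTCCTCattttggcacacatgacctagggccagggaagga
Vsig4 (chrX:96293452-96293531, minus strand): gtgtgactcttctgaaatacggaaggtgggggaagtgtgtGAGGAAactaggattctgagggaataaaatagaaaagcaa
Cd5l (chr3:87357775-87357854, plus strand): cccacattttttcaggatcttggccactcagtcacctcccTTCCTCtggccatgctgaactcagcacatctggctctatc
Marco (chr1:120505131-120505210, minus strand): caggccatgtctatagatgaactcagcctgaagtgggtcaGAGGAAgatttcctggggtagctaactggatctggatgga
A match to such short letters is a description of the sequence and not a mapped binding site.

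Values are normalized counts, the read counts per gene that the authors scaled with a DESeq2 size factor. The libraries held between 7426136 and 12183041 reads on genes, so each member was covered by at least 19 reads in every library. Hepatocyte genes were abundant in every library, with Alb taking 2.99% to 12.78% of reads, and its lowest share was in Dox replicate 2. In each group, replicate 3 could be written almost entirely as replicates 1 and 2 added with fixed weights. These were 58.6% and 40.9% in Control, 61.3% and 34.4% in Dox, and 59.8% and 36.9% in Tc. Among genes more than 2-fold apart in replicates 1 and 2, replicate 3 fell in the interval between them for 501 of 586 in Control, 4139 of 4264 in Dox and 962 of 1022 in Tc. For all 10 members the third library lay between the others in each group. The 3 libraries of a group are therefore treated as labelled, but p-values with all 9 libraries may be too small, and the members' comparisons are also given without the third libraries.

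Within each group, all 10 members were lowest in replicate 1 and highest in replicate 2. The ratio of replicate 2 to replicate 1 ranged from 1.34 to 2.16 over the Control values of the members other than Marco, and from 1.44 to 3.90 over their Dox values. In Tc it ranged from 1.58 to 3.22 over all 10 members. Over all genes tested, replicate 2 exceeded replicate 1 in 47.9%, 50.8% and 47.5% of genes in Control, Dox and Tc, a share that leaves out replicate 3. The general macrophage genes described below had the same order in the median of their log2 differences from the Control mean. For replicates 1, 2 and 3 it was -0.34, 0.27 and 0.07 in Control, -1.95, -0.62 and -1.31 in Dox, and -1.22, -0.33 and -0.79 in Tc. In bulk liver RNA, a lower level of the members can come from fewer macrophages or from less RNA per macrophage, and these cannot be told apart.

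**Figure D1:**
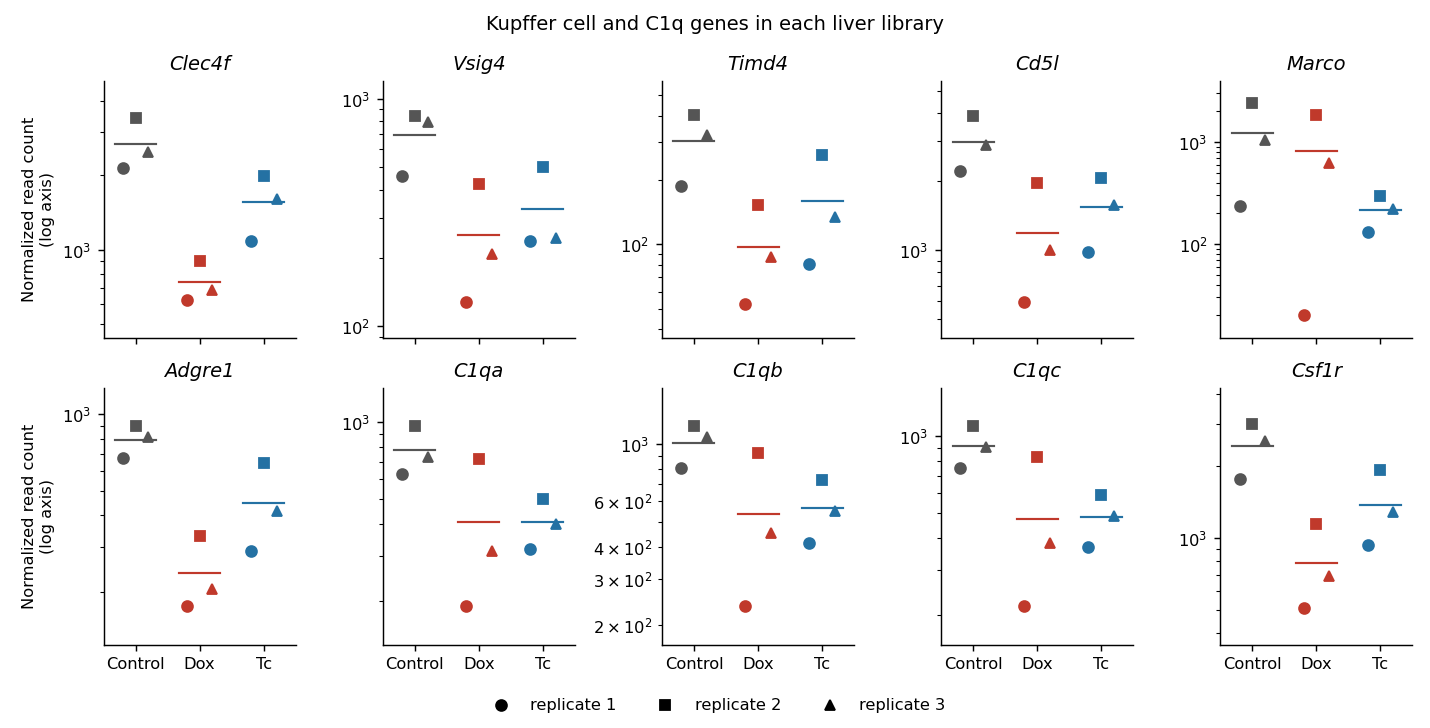
Normalized read count (log axis) of each member in the 9 liver libraries, with the marker shape giving the replicate number and the horizontal line the mean of the 3 libraries of a group. Clec4f separates the 3 groups without overlap, while in Dox replicate 2 (red square) the C1q genes and Marco lie near or within the Control values.

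Levels can be compared between genes only per length, so normalized counts were divided by the exon length in kilobases. In Control livers Cd5l had the highest level per kilobase (1467 ± 402, SD, n = 3), followed by Clec4f (1086 ± 262), C1qb (928 ± 170), C1qa (747 ± 167) and Marco (636 ± 565). C1qc (475 ± 89.6), Vsig4 (470 ± 141), Csf1r (422 ± 108), Adgre1 (245 ± 35.4) and Timd4 (140.5 ± 50.5) followed. Only 3 of the 9 neighbouring pairs in this order were further apart than the larger of their SDs, namely C1qb and C1qa, Csf1r and Adgre1, and Adgre1 and Timd4. In Dox livers Clec4f was in the fifth place per kilobase (298 ± 58.5), after Cd5l (582 ± 345), C1qb (494 ± 323), Marco (428 ± 477) and C1qa (391 ± 264), but none of these neighbours was further apart than the larger SD. In Tc livers the order began as in Control, with Cd5l (760 ± 268), Clec4f (631 ± 185), C1qb (518 ± 144) and C1qa (392.2 ± 88.8).

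The comparison of Dox with Control took in any effect of the drug together with any effect of the silenced transgene. Dox-treated livers held less Clec4f, Adgre1 and Csf1r RNA, by 3.61-, 3.42- and 3.20-fold in the limma fit of all 9 libraries. The other 7 members were also lower in value but did not pass. A gene was called when its fold change was over 2 and its Benjamini-Hochberg adjusted p was under 0.05. Thus 3 of the 10 members were called lower, against 3.86% of all genes tested, and 0 were called higher. The median log2 fold change of the members was -1.56, beside 0 over all genes tested.

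Clec4f had 2148.8, 3405.2 and 2497.0 normalized counts in the Control libraries, 623.4, 899.5 and 688.0 in the Dox libraries and 1082.9, 1993.7 and 1597.7 in the Tc libraries, in the order of the replicate numbers. All Dox values lay below all Tc values, and all Tc values below all Control values. The log2 fold change of Dox against Control was -1.85 ± 0.26 (SE, n = 3 per group, limma adjusted p = 0.00958), and it was -1.85 without the third libraries, where the adjusted p was 0.559 in limma and 0.0196 in DESeq2. Of 12 related C-type lectin genes in the table, 6 could be tested and 0 were called in any of the 3 comparisons.

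Adgre1 encodes F4/80, the adhesion receptor used as a general marker of mouse tissue macrophages. Its Control libraries held 671.1, 898.0 and 811.1 normalized counts, its Dox libraries 175.8, 332.4 and 206.7, and its Tc libraries 290.0, 642.1 and 415.2. Dox and Control did not overlap, Tc lay below Control, and Dox replicate 2 exceeded Tc replicate 1. Adgre1 fell by 1.78 ± 0.32 on the log2 scale with Dox (SE, n = 3 per group, limma adjusted p = 0.0171). Without the third libraries the log2 fold change was -1.68, with a limma adjusted p of 0.559.

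Csf1r encodes the receptor tyrosine kinase for the growth factors Csf1 and Il34, which keep macrophages alive. It had 1765.6, 2993.8 and 2554.2 normalized counts in Control, 510.7, 1152.6 and 696.8 in Dox and 934.5, 1922.6 and 1293.6 in Tc. All Dox libraries were below all Control libraries, whereas Tc replicate 2 lay within the Control range. The log2 fold change with Dox was -1.68 ± 0.36 (SE, n = 3 per group, limma adjusted p = 0.0289) and -1.58 without the third libraries (limma adjusted p = 0.571). Csf1r shares exon bases with Hmgxb3 on the other strand. The library kit marks strand, but the strand setting of the counting is not given in the sources used here, so some of its reads could belong to Hmgxb3.

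Vsig4, the complement receptor by which Kupffer cells catch C3b-coated particles, had 458.3, 840.5 and 794.6 normalized counts in Control and 127.4, 424.5 and 208.5 in Dox. Timd4 had 187.4, 404.3 and 324.2 in Control and 52.6, 153.0 and 87.1 in Dox. Cd5l, a secreted scavenger receptor family protein of tissue macrophages, had 2229.3, 3855.5 and 2878.4 in Control and 591.8, 1960.1 and 1003.0 in Dox. For each of the 3 genes every Dox value lay below every Control value, and the highest Dox value was that of replicate 2. Their log2 fold changes were -1.58 ± 0.47, -1.70 ± 0.51 and -1.47 ± 0.44 (SE, n = 3 per group), and the limma adjusted p-values of 0.069, 0.0712 and 0.0714 did not pass. DESeq2 on the recovered reads of all 9 libraries called these 3 genes in addition (adjusted p = 0.0197, 0.0138 and 0.0229), which gave 6 of 10 members against 6.20% of all genes. DESeq2 without the third libraries called only Clec4f, 1 of 10 members against 0.843% of all genes. In limma without the third libraries 0 of 12100 genes passed, and at an unadjusted p under 0.05 with the same fold limit 3 of 10 members did (Clec4f, Adgre1 and Csf1r) against 4.26% of all genes. With all 9 libraries and an unadjusted p, 9 of 10 members passed that fold limit in the lower direction, all except Marco, against 7.75% of all genes.

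The C1q genes gave a smaller difference. C1qa had 628.8, 967.9 and 733.6 normalized counts in Control and 190.6, 716.6 and 314.1 in Dox. C1qb had 804.5, 1165.1 and 1059.1 in Control and 236.9, 923.7 and 451.3 in Dox. C1qc had 748.4, 1094.4 and 910.3 in Control and 216.9, 829.4 and 383.6 in Dox. For all 3 chains, Dox replicates 1 and 3 lay below every Control library, whereas Dox replicate 2 lay above the lowest Control library. The log2 fold changes were -1.12 ± 0.43, -1.11 ± 0.44 and -1.14 ± 0.43 (SE, n = 3 per group, limma adjusted p = 0.129, 0.141 and 0.124).

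Marco, a collagen-like scavenger receptor that binds bacteria, varied most. It had 238.2, 2391.3 and 1046.3 normalized counts in Control, 20.0, 1824.4 and 627.3 in Dox and 130.9, 294.1 and 219.8 in Tc. Replicate 2 exceeded replicate 1 by 10.04-fold in Control and by 91.19-fold in Dox, so the Dox range enclosed 2 of the 3 Control values. The Tc values were close together and reached into the Control range at its lower end. The log2 fold change with Dox was -1.55 with a 95% interval from -4.96 to 1.87 (limma adjusted p = 0.519), and without Dox replicate 1 it was 0.35. Counting all members, 6 of 10 did not overlap between Dox and Control in the lower direction, against 17.1% of all genes, and without the third libraries the same count was 6 against 19.8%.

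**Figure D2:**
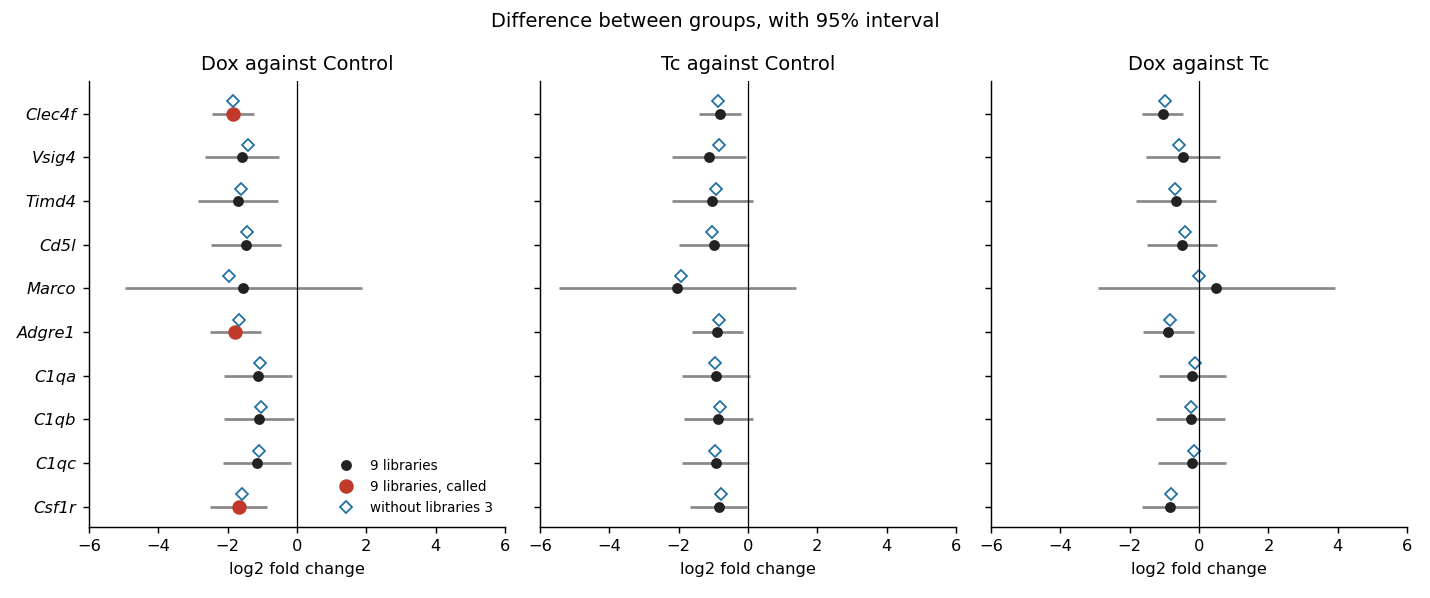
Log2 fold change of each member in the 3 comparisons (points) with its 95% interval (lines) from the limma fit of all 9 libraries, red where the gene was called, and the value without the third libraries (open diamonds). Only Clec4f, Adgre1 and Csf1r were called, and only in Dox against Control, and the diamonds stay close to the points for every member except Marco.

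Dox replicate 2 was the library in which the members parted. Measured against the mean of the Control libraries on the log2 scale, its values ranged from -1.55 for Clec4f, -1.24 for Adgre1 and -1.05 for Csf1r through -0.92 for Timd4, -0.67 for Vsig4 and -0.57 for Cd5l. The C1q genes were at -0.09, -0.11 and -0.13 there, and Marco was at 1.11, above the Control mean. In Dox replicate 1 the 9 members other than Marco were close together, from -2.44 to -2.0, and Marco was at -5.33. In Tc the same 9 members ranged from -1.83 to -1.26 in replicate 1, from -0.62 to -0.16 in replicate 2 and from -1.45 to -0.72 in replicate 3. Without Dox replicate 2, 9 of the 10 members were called lower with Dox, all except Marco, with a median of -2.0. Calls over all genes rose as well in that fit, to 6.56% called lower, from 3.86% with all 9 libraries. The part of that library's low Alb share or of its many differing genes in this result was not tested.

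**Figure D3:**
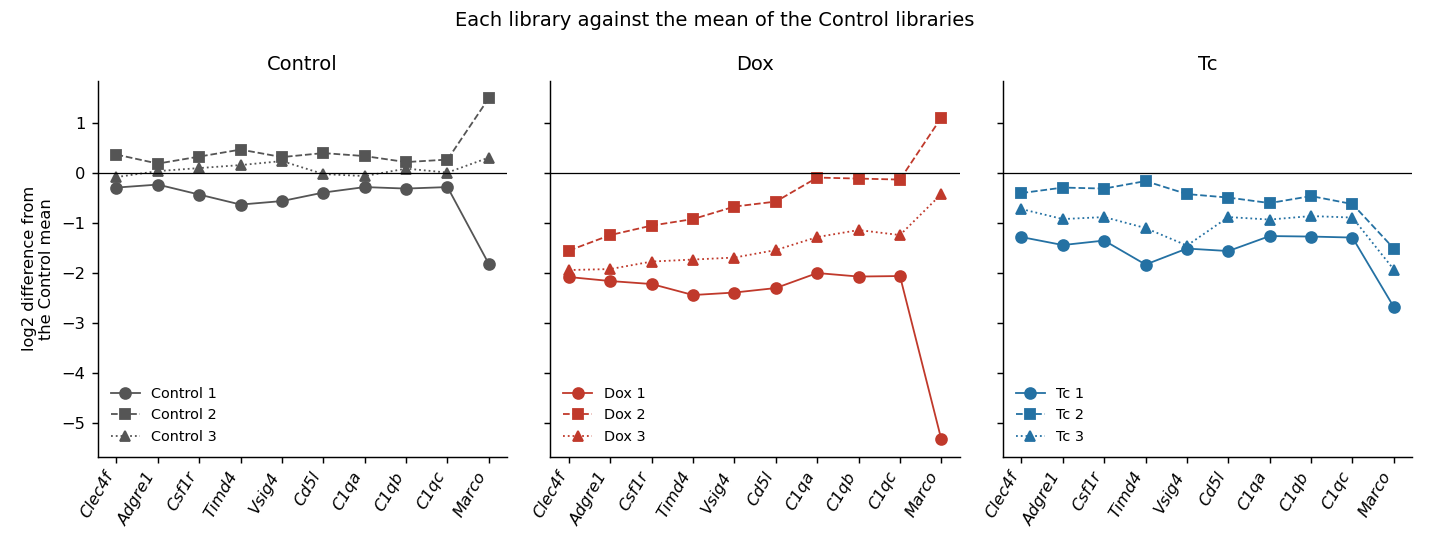
Log2 difference of each member from the mean of the 3 Control libraries, drawn per library and split by group, with members ordered from Clec4f to Marco. The Dox replicate 2 line climbs from -1.55 for Clec4f to -0.09 for C1qa and 1.11 for Marco, whereas the Tc lines lie between -1.83 and -0.16 up to C1qc.

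The ratios between members within a library show the same pattern without any scaling between libraries. C1qa to C1qb stayed between 0.693 and 0.831 and C1qc to C1qb between 0.812 and 0.939 in all 9 libraries, so the 3 chains kept nearly constant proportions. C1qb to Clec4f was 0.374, 0.342 and 0.424 in the Control libraries, 0.381, 0.364 and 0.345 in the Tc libraries, and 0.380, 1.027 and 0.656 in the Dox libraries. C1qb to Adgre1 was likewise between 1.132 and 1.424 in the 6 Control and Tc libraries and in Dox replicates 1, 2 and 3 was 1.347, 2.779 and 2.183. In Dox replicate 1 both of these ratios were thus close to the Control values, at a lower level of each gene, and Dox replicate 2 held more C1qb per Clec4f and per Adgre1 than any other library. Clec4f to Adgre1 (2.706 to 3.848) and Csf1r to Adgre1 (2.631 to 3.467) moved little over the 9 libraries. Marco to Adgre1 ranged from 0.114 in Dox replicate 1, below the Control values of 0.355 to 2.663, to 5.488 in Dox replicate 2.

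Across the 9 libraries the log2 values of the 9 members other than Marco had pairwise Pearson correlations between 0.79 and 1.0 (median 0.95), and the 3 pairs of C1q genes had at least 0.99. Marco correlated with the others at 0.49 to 0.87. Over the 6 first and second libraries the ranges were 0.76 to 1.0 and 0.59 to 0.95. These are descriptions over libraries that share groups and, for the third libraries, much of their composition. The 8 genes whose log2 values were most like the mean profile of the members, out of 12090 others, were Cd163 (r = 0.995 over 9 libraries, 0.997 over 6), Fermt3 (0.992, 0.992), Laptm5 (0.991, 0.992), Sh3kbp1 (0.990, 0.996), Tyrobp (0.988, 0.988), Syk (0.988, 0.995), Mrc1 (0.987, 0.989) and Csf2rb2 (0.987, 0.986). Cd163, the macrophage receptor for haptoglobin-bound haemoglobin, had 558.9, 1280.1 and 842.9 normalized counts in Control, 90.6, 495.8 and 225.2 in Dox and 230.5, 474.8 and 381.5 in Tc. A total of 265 genes had a correlation over 0.9 with the profile.

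The comparison of Tc with Control likewise took in any effect of the parent drug together with any effect of the silenced transgene. All 10 members were lower in value with Tc, but 0 were called, in limma or DESeq2, with or without the third libraries. The background was low too, with 0.124% of all genes called lower in limma, 1.03% in DESeq2 and 0.0579% in DESeq2 without the third libraries. With an unadjusted p under 0.05 and a fold change over 2, 1 member passed in limma with 9 libraries (Vsig4), against 2.26% of all genes, and 0 passed without the third libraries, against 0.810%. The median log2 fold change of the members was -0.93, beside 0.004 over all genes.

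Among the identity genes, the Tc log2 fold changes were -0.80 for Clec4f (95% interval -1.40 to -0.20), -0.89 for Adgre1 (-1.61 to -0.16), -0.85 for Csf1r (-1.66 to -0.03) and -1.13 for Vsig4 (-2.19 to -0.06). The limma adjusted p of these 4 genes ranged from 0.316 to 0.418. Timd4 and Cd5l had log2 fold changes of -1.03 and -0.98 with intervals that reached 0 (upper bounds of 0.13 and 0.03). With only Tc and Control in the fit, their intervals were -2.02 to -0.04 and -1.64 to -0.31. Vsig4 had 236.3, 503.6 and 245.9 normalized counts in Tc, Timd4 had 81.1, 260.8 and 134.8, and Cd5l had 987.3, 2075.5 and 1580.0. In Vsig4 and Timd4 the second Tc library lay within the Control range, and in Cd5l all Tc libraries lay below it.

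The C1q genes were lower than every Control library in all Tc libraries. C1qa had 319.3, 503.6 and 400.9 normalized counts with Tc, C1qb had 413.1, 726.6 and 550.8, and C1qc had 369.1, 589.9 and 487.6. Their log2 fold changes were -0.93, -0.86 and -0.94, and each 95% interval reached just past 0 (upper bounds of 0.05, 0.14 and 0.04). With only Tc and Control in the fit, their intervals were -1.40 to -0.46, -1.36 to -0.36 and -1.39 to -0.48. The limma adjusted p in that fit was 0.0386, 0.0593 and 0.0329, but the fold changes of 1.90, 1.82 and 1.91 were under the limit of 2. In the fit of all 9 libraries, Marco had -2.04 with an interval from -5.45 to 1.37. Over all members, 6 of 10 did not overlap between Tc and Control (Clec4f, Cd5l, Adgre1, C1qa, C1qb and C1qc), against 14.9% of all genes. Without the third libraries the count was also 6, against 22.0%.

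Dox and Tc are related compounds, differing in the position of a hydroxyl group, and were given at the same concentration for the same time. The drinking water dose was matched, but how much drug reached the liver was not measured. Directly compared over the 10 members, 9 were lower in value with Dox than with Tc and 0 were called in limma, where 0.174% of all genes were called lower. DESeq2 with all 9 libraries called Clec4f lower with Dox (log2 fold change -1.08, adjusted p = 0.00716), 1 of 10 members against 2.60% of all genes. In limma at an unadjusted p, 1 member passed with all 9 libraries (Clec4f) against 4.23% of all genes. Without the third libraries 0 members passed in DESeq2 (0.182% of all genes) or in limma at an unadjusted p (1.94% of all genes). Since both comparisons with Control share the Control libraries, only this direct comparison bears on the difference between the drugs.

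Clec4f differed most clearly between the drugs, with a log2 fold change of -1.05 and a 95% interval from -1.65 to -0.45 (limma adjusted p = 0.115). For Adgre1 the difference was -0.89 (interval -1.62 to -0.16) and for Csf1r -0.83 (-1.65 to -0.02). The intervals of Timd4 (-1.83 to 0.49), Vsig4 (-1.52 to 0.61) and Cd5l (-1.50 to 0.51) included 0. For the C1q genes the estimates were near 0, at -0.20, -0.25 and -0.21, but the intervals (-1.17 to 0.78, -1.25 to 0.76 and -1.18 to 0.77) left room for differences of about 2-fold in either direction. Marco had 0.50 with an interval from -2.92 to 3.91. Only Clec4f did not overlap between Dox and Tc, 1 of 10 members against 12.4% of all genes, and 1 against 15.5% without the third libraries. With the replicate number as a block in Dox and Tc alone, 0 members were called and the adjusted p of Clec4f was 0.379.

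The ligands and regulators of Kupffer cells were examined beside their receptor, followed by other gene lists, with calls from limma on all 9 libraries unless another fit is named. Without the third libraries, limma called 0 genes of these lists in any comparison. DESeq2 without the third libraries called Csf1, Itgam, Aif1, Stab1, Stab2, Mpo and Prtn3 lower with Dox than in Control, 0 list genes in Tc against Control, and Prtn3 lower with Dox than with Tc. A list of 17 genes of Kupffer cell niche signalling held growth factors, a chemokine, and Notch and TGF-beta family ligands. It also held Notch and TGF-beta family receptors, their mediators Rbpj and Smad4, and the adhesion molecules Vcam1 and Icam1. Of the 17, 1 was called lower with Dox and 0 with Tc. The one called was Csf1, the growth factor that binds Csf1r. Csf1 had 581.1, 483.0 and 500.9 normalized counts in Control, 106.4, 89.7 and 102.9 in Dox and 178.7, 318.3 and 246.8 in Tc. The 3 groups did not overlap, and the Dox libraries, including replicate 2, were close together. The log2 fold change was -2.38 ± 0.21 with Dox (SE, n = 3 per group, limma adjusted p = 0.00369) and -1.11 ± 0.21 with Tc (adjusted p = 0.0958). DESeq2 on all 9 libraries also called Csf1 lower with Tc (log2 fold change -1.08, adjusted p = 0.000729). Without the third libraries the Dox value was -2.43, with an adjusted p of 0.559 in limma and 2.29e-05 in DESeq2. Il34, the other ligand of Csf1r, was low, with means of 23.4, 12.8 and 20.9 in Control, Dox and Tc.

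**Figure D4:**
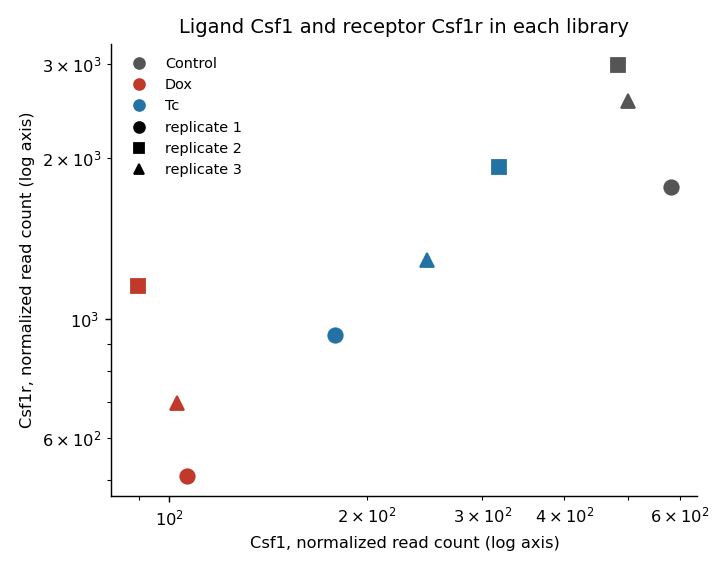
Normalized read counts (log axes) of the ligand Csf1 (x axis) and its receptor Csf1r (y axis) in the 9 libraries, coloured by group, with the marker shape giving the replicate number. The Csf1 values separate Dox (89.7 to 106.4), Tc (178.7 to 318.3) and Control (483.0 to 581.1), while Csf1r overlaps between Dox and Tc and between Tc and Control.

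Of 13 transcription factors of Kupffer cells, 1 was called lower with Dox and 0 with Tc, with medians of -0.23 and -0.23. With each drug 8 were lower in value, and log2 fold changes ran from -1.3 to 0.6 with Dox and from -1.12 to 0.24 with Tc. The most abundant, Rxra and Cebpa, had means of 5543 and 4573 in Control and 5851 and 4612 in Dox. Spi1, which encodes PU.1, was not called and had means of 120.5, 59.8 and 57.2 in Control, Dox and Tc, with overlap between Dox and Control. Zeb2, a repressor that maintains tissue macrophage identity, had a log2 fold change of -1.04 with Dox (limma adjusted p = 0.0469). Means in Control and Dox were 177.3 and 87.3 for Irf8, 51.0 and 22.0 for Tfec and 829.7 and 471.0 for Maf. In the other direction they were 194.0 and 335.5 for Id3, 31.0 and 47.8 for Id1 and 20.6 and 37.4 for Spic. In whole liver RNA the list also counts any expression outside Kupffer cells, so its median need not describe these cells. Of 15 further Kupffer cell genes, 5 were called lower with Dox and 0 with Tc. Kcna2, a potassium channel gene, changed by -2.26 on the log2 scale with Dox and had -1.04 with Tc. Folr2, a folate receptor of tissue macrophages, had -1.96 and -1.10, Pilra, an inhibitory receptor of myeloid cells, had -1.75 and -0.39, and Siglec1, a sialic acid receptor, had -1.72 and -0.93. Ptgs1 was the fifth gene called. None of these genes passed with Tc in limma. Of the 15 genes, 14 were lower in value with Dox, and the exception was Hmox1, the enzyme that breaks down heme. Hmox1 had 181.0, 303.4 and 228.8 normalized counts in Control, 185.3, 2083.2 and 816.4 in Dox and 170.9, 227.5 and 190.3 in Tc. Its high values were those of Dox replicates 2 and 3, whereas Dox replicate 1 lay within the Control range. The log2 fold change with Dox was 1.55 in limma (adjusted p = 0.192), and DESeq2 on all 9 libraries called it higher with Dox than in Control (2.10, adjusted p = 0.0107) and than with Tc (2.39, adjusted p = 0.00663).

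The rest of the C1 complex and of the classical pathway is made largely by hepatocytes. Of 8 genes, 6 could be tested, 1 was called lower with Dox and 0 with Tc, and the medians were -0.88 with Dox and 0.06 with Tc. DESeq2 on all 9 libraries called 2 lower with Dox than in Control and 2 lower than with Tc, and 0 in either comparison without the third libraries. C3, the most abundant, had 341125, 268772 and 298781 in Control, 97807, 104814 and 96657 in Dox and 132121, 347759 and 220428 in Tc. Its Dox values lay below all others. C4b, the complement component cleaved by C1, had 33422 ± 1692 normalized counts in Control, 11282 ± 5615 in Dox and 28593 ± 2846 in Tc (SD, n = 3; limma adjusted p = 0.0318 for Dox). C1s1, the protease that cleaves it, had 4179.1, 4055.4 and 3786.2 in Control and 4742.6, 1267.6 and 3277.2 in Dox. C1ra, the protease that activates C1s, had 1942.4, 1839.3 and 1966.8 in Control and 2293.4, 766.1 and 1722.6 in Dox. For both proteases Dox replicate 2 was the lowest library, whereas for the C1q genes it was the highest of the Dox group. Serping1, the inhibitor of both proteases, had means of 8483, 4261 and 8643 in Control, Dox and Tc and was not called.

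Among 7 receptors proposed for C1q, 6 could be tested and 0 were called in limma against Control, while DESeq2 on all 9 libraries called Lrp1, a large endocytic receptor, lower with Dox (-1.08, adjusted p = 0.00643). Of 19 genes for the clearance of apoptotic cells and other scavenger receptors, 16 could be tested and 4 were called lower with Dox and 0 with Tc. Stab1 and Stab2, scavenger receptors of sinusoidal endothelial cells, had log2 fold changes of -1.63 and -1.22 with Dox. Msr1, the class A macrophage scavenger receptor, had -1.37, and Axl, a receptor for Gas6 bound to dying cells, had -1.21. Of 12 C1q and TNF related genes, 2 could be tested and 0 were called in limma, while DESeq2 on all 9 libraries called C1qtnf6 lower with Dox (-1.14, adjusted p = 0.0465).

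Marker lists of other cells in the tissue were read beside the members. Of 18 general macrophage and myeloid genes, 17 could be tested. In limma with all 9 libraries all 17 were lower in value and 7 were called lower with Dox, with a median of -1.30. With Tc 0 were called, with a median of -0.88. DESeq2 on all 9 libraries gave 16 of the 17 lower in value with Dox, as did limma and DESeq2 without the third libraries. The exception, Cd68, had 109.0, 166.3 and 170.4 normalized counts in Control and 53.7, 358.9 and 126.7 in Dox. Itgam (-2.86), Aif1 (-2.26), Fcgr1 (-1.97) and Ctsc (-1.84) had the largest log2 fold changes of those called with Dox. Their summed level ranged from 8101.9 to 12077.8 normalized counts in Control, 3350.6 to 6439.4 in Dox and 4665.8 to 9409.0 in Tc. None of these 18 genes was at 0 in every library.

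Among monocyte and monocyte-derived macrophage genes, of which only some are given, F13a1 was called lower with Dox and Cd9 was called higher. The summed level of this list overlapped between groups, at 536.7 to 597.2 in Control, 512.8 to 679.8 in Dox and 454.1 to 607.9 in Tc. Of 13 neutrophil genes, 7 could be tested and 2 were called lower with Dox (Prtn3 and Mpo), and the summed level was 5858.9 to 7089.2 in Control, 32.6 to 548.7 in Dox and 167.0 to 16916 in Tc. Most of that sum was Lcn2, a protein of neutrophil granules that hepatocytes also secrete, at 5041.0 to 6067.0 in Control, 24.2 to 376.1 in Dox and 141.6 to 16168.7 in Tc. The sum therefore does not describe the list as a whole. In limma all 7 genes tested were lower in value with each drug, with medians of -3.09 for Dox and -2.14 for Tc, and without the third libraries 6 of the 7 were. Overlap differed between genes. Mpo had 9.5, 111.5 and 66.1 normalized counts in Control and 0.0, 1.2 and 0.9 in Dox, without overlap, and 4.9, 9.9 and 6.7 in Tc. S100a9 had 16.9, 74.3 and 55.9 in Control, 1.1, 48.3 and 19.4 in Dox and 3.9, 41.4 and 10.1 in Tc, with overlap between all groups. The part of these cells in the values of the members was not tested.

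Sinusoidal endothelial genes were lower with Dox in part, with 3 of 13 called (Stab1, Stab2 and Cdh5), a median of -0.84, and summed levels of 11545 to 12318 in Control, 6075.7 to 7949.7 in Dox and 9043.5 to 10715 in Tc. Of 12 stellate cell genes 0 were called, with a median of -0.33 and summed levels of 5489.5 to 5747.9, 4640.5 to 5764.2 and 5468.5 to 6094.3. Of 11 hepatocyte genes tested, 1 was called lower with Dox (Fgb). Of 7 cholangiocyte genes 3 could be tested and 1 was called higher with Dox (Sox9). Of 12 lymphocyte and 8 dendritic cell genes, 1 each could be tested and 0 were called in limma, while DESeq2 on all 9 libraries called Cd79b, a B cell receptor chain, lower with Dox (-2.04, adjusted p = 0.0157). With Tc, 0 genes of any of these lists were called in limma, and DESeq2 on all 9 libraries called Csf1, F13a1, Chil3, Mpo and Lyve1 lower than in Control.

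**Figure D5:**
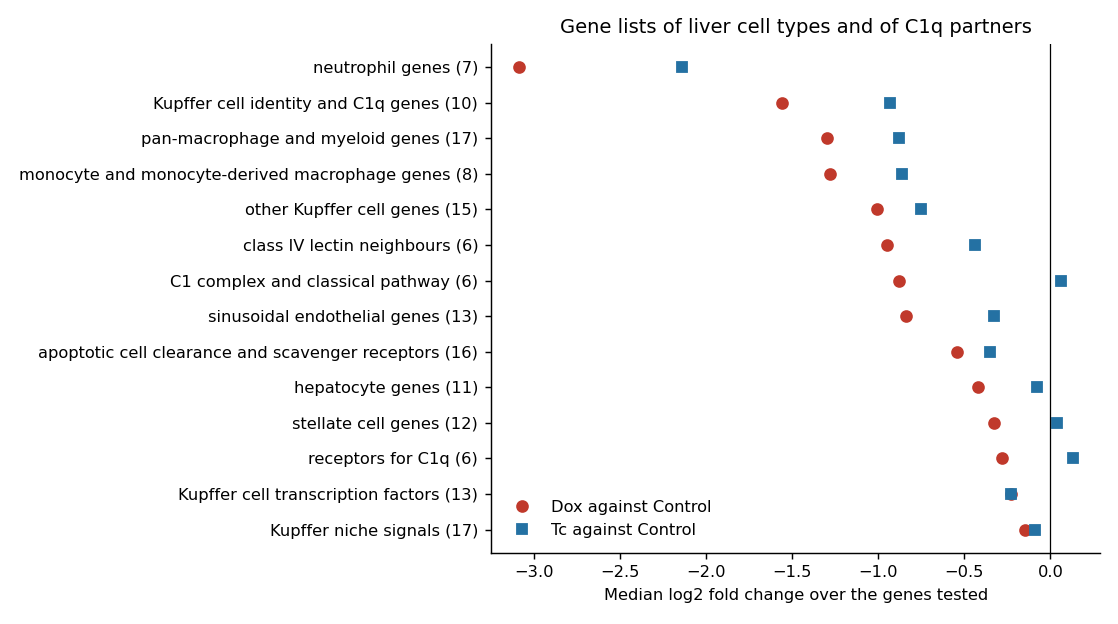
Median log2 fold change of the gene lists in Dox (circles) and Tc (squares) against Control, for lists with at least 6 genes tested (number in brackets). The 10 Kupffer cell identity and C1q genes lie at -1.56 and -0.93, next to the general macrophage genes at -1.30 and -0.88. The niche list, which also holds receptors, lies at -0.15 and -0.09 and the transcription factors at -0.23 and -0.23. Both of these lists hold genes lower and genes higher in value.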

How the data were processed

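Liver RNA of 3 groups (Control, Dox and Tc; 3 libraries each) was sequenced. Per the labels, the authors trimmed reads with cutadapt, aligned them to mm10 with STAR 2.7.11ac, counted them with HTSeq 2.0.5 and normalized them with DESeq2 1.42.0. The deposited values are thus a signal in normalized counts, not raw reads. Symbols were matched for 32158 of 32285 identifiers, and exon lengths and coordinates were taken from GENCODE for GRCm38. Labels do not say how mice map to libraries, so p-values measure the spread between libraries.

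The 10 members, the gene lists and the tests were chosen with earlier results of these data known. Log2(normalized count + 1) was fitted with limma 3.58.1 (trend, R 4.3.3) in 1 model of all 9 libraries, for genes with a mean of at least 10, with Benjamini-Hochberg adjustment over 12100 genes. Fold changes are on that scale, which understates changes of low genes. Whole reads were recovered from the values (100% whole within 0.1 reads) and passed to DESeq2 1.42.0 and, separately, to edgeR 4.0.16 as other tests. Scripts were tested on simulated counts. All members were named; of each list, at most 4 genes, called ones first by size of change, then the most abundant. Genes named outside that rule (Ptgs1, Il34, Hmox1, Spi1, Irf8, Tfec, Maf, Id3, Id1, Spic, Cd68, C3, S100a9 and those called by DESeq2 alone) were chosen after their values were seen. The most similar genes were the 8 with the highest Pearson correlation to the members' mean centred log2 profile. Same-numbered Dox and Tc libraries, by their labels, shared part of their deviation from the group mean (r = 0.29, 0.32 and 0.18), so Dox against Tc was also fitted with the replicate number as a block. Python 3.11.15 was used for the descriptions. The full result of the monocyte gene list is not reported here.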

Additional observations from a re-analysis of the deposited data

How the results depend on the processing

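Of the 10 members, 3 were called lower in Dox against Control. This count was 6 with DESeq2 on recovered reads, 0 without library 3 of each group, 1 with DESeq2 without them and 9 with an unadjusted p, where 7.75% of all genes were lower against 3.86% in the reported fit. It was 3 at an unadjusted p without libraries 3, a count added after seeing the data, and 2 with only the compared groups (2.30% of all genes). It was 6 with the replicate block (3.81% of all genes), a fit whose numbers did not pair Control with Dox (r from -0.05 to 0.06). Leaving out each library in turn gave 0 to 9 members: 0 without Control replicate 3 (0.207% of all genes called lower) or Dox replicate 3 (0.554%), 1 without Control replicate 2 (0.802%), 2 without Control replicate 1 (1.64%) or Tc replicate 3 (2.13%), 3 without Dox replicate 1 (6.93%), Tc replicate 1 or Tc replicate 2, and 9 without Dox replicate 2 (6.56%). Without both Dox replicates 2 and 3, a setting chosen after seeing the data like the block in Dox and Tc alone, it was 10 (6.85% of all genes), with member medians of -2.19 (Dox against Control) and -1.27 (Dox against Tc). There the lone Dox library was assumed to vary like the other groups. In Tc against Control, 1 member passed at an unadjusted p, and in Dox against Tc, 1 passed in DESeq2 and 1 at an unadjusted p. The block changed no call in Tc against Control or Dox against Tc. Leaving out each library, medians ranged from -2.0 to -1.12, from -1.15 to -0.67 and from -0.93 to -0.06 in the 3 comparisons. Only Marco and the C1q genes changed sign. Marco in Dox against Control ranged from -2.88 to 0.35 over fits without 1 library (0.35 without Dox replicate 1). In Dox against Tc, Marco ranged from -0.83 to 2.39 (-0.83 without Dox replicate 2, -0.06 without Dox replicate 3), and was -0.010 without libraries 3 and -3.29 without Dox replicates 2 and 3. C1qa, C1qb and C1qc in that comparison ranged from -0.71 to 0.24, -0.75 to 0.23 and -0.71 to 0.25 when single libraries were left out (above 0 without Dox replicate 1) and were 0.15, 0.032 and 0.13 with DESeq2 without libraries 3. The cause was not tested. Over all genes, Dox against Control gave 605 calls in limma, 1137 in DESeq2 and 668 in edgeR. Scaling to the same total shifted the median of all genes by 0.17 in Dox against Control and left 3 members called. Other settings of pseudocount (0.1 or 8), filter, TMM scaling and edgeR left the calls of members unchanged in number. In the fit of all 9 libraries, the limma 95% intervals of 1, 6 and 7 of the 10 members included 0 in Dox against Control, Tc against Control and Dox against Tc, which limits what could be detected. With only Tc and Control in the fit, the intervals of Timd4, Cd5l, Marco and the C1q genes did not include 0. That fit called 0 members lower (1.39% of all genes), since C1qa and C1qc passed the adjusted p but not the fold limit.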
